A study of Mus musculus with 5 samples.

Results

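The genes described here are 10 transcription factors linked to the receptive uterine epithelium, the state in which the uterine lining lets a blastocyst attach: Msx1, Msx2, Sox17, Foxa2, Klf4, Klf5, Ehf, Elf3, Grhl2 and Ovol1. They were taken by gene symbol from a table of 23420 genes, and all 10 were in it. The 10 genes were read in 5 RNA-seq libraries, each made from the luminal layer of the uterus that was cut out by laser microdissection from wild-type C57BL/6N mice in early pregnancy. No mutant and no drug-treated group was among them, and the day of the vaginal plug counted as day 1.

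The 5 groups were day 3 morning, when embryos at the 8-cell stage were flushed from the oviduct, day 4 morning and day 4 evening, when blastocysts were flushed from a single horn and the opposite horn was frozen, and a pair of day 5 morning samples. On day 5 mice received Chicago blue (1% in saline) in a vein to show the attachment sites. One day 5 library held the luminal layer around the attached embryo (AM pole in the labels) and the other the layer away from it (M pole), and they are called day 5 around and day 5 away here. AM and M stand for the anti-mesometrial and mesometrial poles of the uterus, so nearness to the embryo and pole cannot be told apart. The labels of days 3 and 4 name no pole. Each group was a single library, so no difference below has a replicate check and no p-value is given. The intervals are exact 95% intervals of the ratio of counts; they cover counting error only, not the spread between mice, sections or amplifications. How many mice or sections went into each library is not given in the sources used here.

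The uterine lining is a sheet of luminal epithelium from which glands descend into the stroma. Under progesterone and a short rise of estrogen it becomes receptive, and gland-derived Lif acts through Stat3 in the epithelium. Homeobox, Sox, Fox, Klf, Ets, Grhl and Ovol factors act in this sheet to set its identity, its polarity and its answer to the 2 hormones. After attachment the epithelium around the embryo folds into a chamber and is later lost.

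The libraries held 15334674 to 19529491 counted reads. A count of 3, used as the floor, was worth 0.161 to 0.190 CPM (counts scaled to 1e6 per library after trimmed-mean scaling), and Foxa2 in all libraries and Msx2 after day 3 had few counts. The ribosomal precursor Rn45s and the mitochondrial enzyme gene Lars2 together took 15.0% to 23.2% of the counts. Epithelial RNA was sought with 8 general epithelial genes, Epcam, Cdh1 and keratins among them. All 8 were counted in each library, with a summed level of 4839 to 7597 CPM. This shows that epithelial RNA was present, not that its share was alike, and single genes went different ways. From day 4 morning to day 5 away Krt19 went from 763 to 38.0 CPM and Epcam from 391 to 635 CPM. The 6 luminal markers were counted in each library too, but their sum was 5600 to 8935 CPM through day 4 and 980.5 and 1895 CPM in day 5 away and around; the calcium-binding protein gene Calb1 made most of it through day 4, at 4621 to 7978 CPM, and was at 72.8 and 17.8 CPM on day 5. In RNA from a cut-out layer, fewer cells of a type and less RNA per cell cannot be told apart.

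Promoter windows from RefSeq (GRCm38.p6; 250 bases before to 50 bases after the start of transcription) were matched for 5 of the 10 genes, and Sox17, Klf5, Ehf, Grhl2 and Ovol1 had no entry. The windows of 4 genes are printed because they belong to members with wide ranges in level (Klf4, Elf3, Msx2) and to Msx1, the partner of Msx2; capitals mark matches to the GC box GGGCGG or to CACCC, the letters that Sp and Klf proteins bind, on either strand. The Msx1 window is chr5:37824536-37824835, the Msx2 window chr13:53472731-53473030, the Klf4 window chr4:55532426-55532725 and the Elf3 window chr1:135258423-135258722, all on the minus strand and printed 5′ to 3′ along the gene.
Msx1: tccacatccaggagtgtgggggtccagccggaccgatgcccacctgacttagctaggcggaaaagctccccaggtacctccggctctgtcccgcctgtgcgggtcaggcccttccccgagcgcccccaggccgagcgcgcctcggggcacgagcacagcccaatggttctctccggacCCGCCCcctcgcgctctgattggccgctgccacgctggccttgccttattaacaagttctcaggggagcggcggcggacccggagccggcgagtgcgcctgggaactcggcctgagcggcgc
Msx2: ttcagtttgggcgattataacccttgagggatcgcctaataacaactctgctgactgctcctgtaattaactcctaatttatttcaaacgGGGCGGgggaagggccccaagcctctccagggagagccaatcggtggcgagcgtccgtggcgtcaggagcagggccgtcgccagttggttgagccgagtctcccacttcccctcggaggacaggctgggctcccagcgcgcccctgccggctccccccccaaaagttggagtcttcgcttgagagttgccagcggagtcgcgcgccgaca
Klf4: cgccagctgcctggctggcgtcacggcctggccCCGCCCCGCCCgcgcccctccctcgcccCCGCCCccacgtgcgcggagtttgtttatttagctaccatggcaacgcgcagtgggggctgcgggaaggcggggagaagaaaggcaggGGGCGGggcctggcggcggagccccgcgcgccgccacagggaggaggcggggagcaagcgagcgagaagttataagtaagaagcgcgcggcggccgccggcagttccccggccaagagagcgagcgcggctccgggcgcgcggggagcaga
Elf3: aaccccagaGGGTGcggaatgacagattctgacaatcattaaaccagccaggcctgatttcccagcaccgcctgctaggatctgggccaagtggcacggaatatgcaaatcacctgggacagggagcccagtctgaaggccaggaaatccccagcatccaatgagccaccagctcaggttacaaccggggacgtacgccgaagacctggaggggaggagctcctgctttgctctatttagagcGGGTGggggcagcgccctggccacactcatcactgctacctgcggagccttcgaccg

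The Klf4 window was the richest in GC of these, with 74.3% GC and 40 CpG pairs, and it held 4 GC boxes, at 217, 212, 189 and 101 bases upstream of the start; the first and the second of them overlap. The Msx1 window had 70.0% GC, 29 CpG pairs and a GC box at 72 bases upstream. The Msx2 window had 61.0% GC, 22 CpG pairs and a GC box at 160 bases upstream. The Elf3 window differed from these: it had 59.0% GC, 12 CpG pairs and no GC box, and its 2 CACCC matches stood at 241 and 7 bases upstream on the opposite strand. Over all 32851 windows of this length the median was 52.7% GC and 7 CpG pairs, 35.7% held a GC box and 57.5% held CACCC, so neither match is rare. The letters TTCNNNGAA of Stat factors (in 8.30% of all windows), AACCGGTT of Grhl (0.146%), TAATTG of Msx (8.00%), ATTGTT of Sox (10.7%) and TGTTTAC of Foxa (3.65%) were searched on both strands and were in none of the 7 member windows, which include 3 for Foxa2. A match or its absence describes these 300 bases only.

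**Figure D1:**
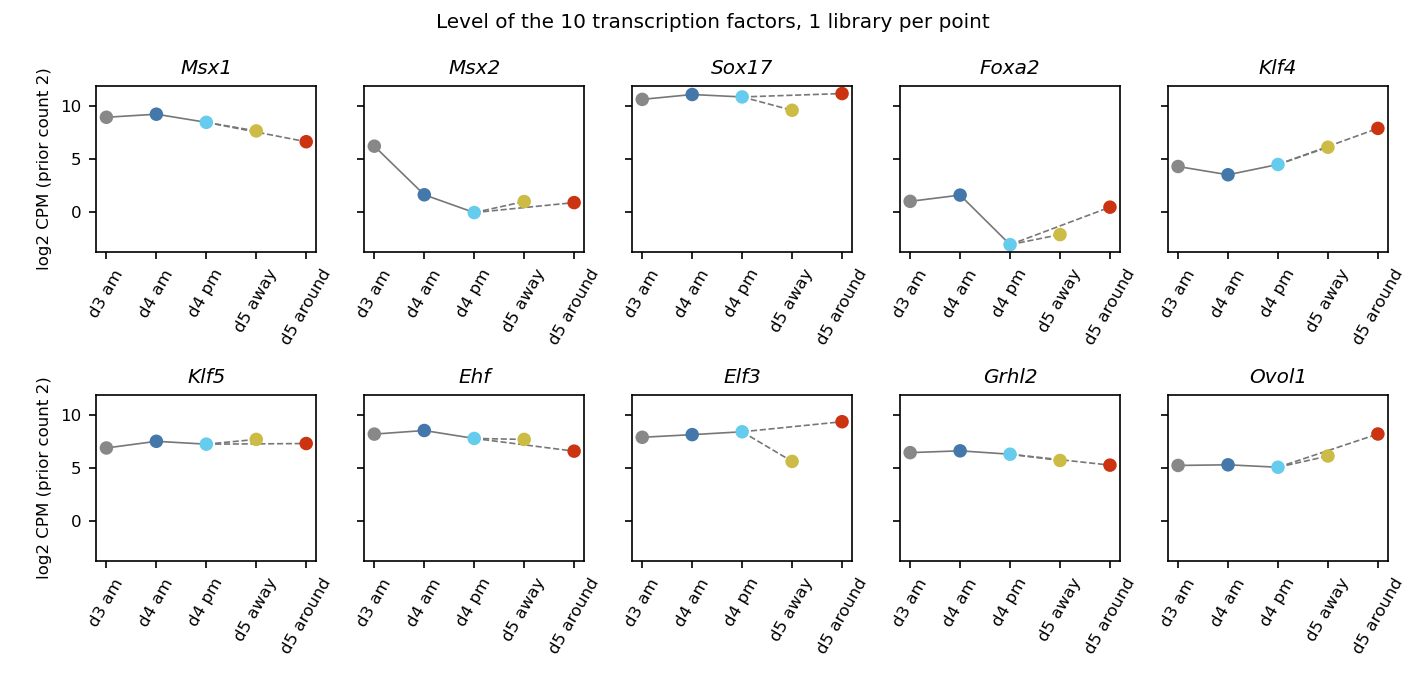
Level of each transcription factor in the 5 libraries, as log2 CPM with a prior count of 2; each point is 1 library, d3, d4 and d5 stand for the day of pregnancy, am and pm for morning and evening, solid lines join days 3 and 4 and dashed lines run to both day 5 samples. Sox17 is the highest panel in all libraries, Msx2 is high on day 3 only, Klf4 and Ovol1 are highest in day 5 around, and Elf3 is lowest in day 5 away and highest in day 5 around; the day 4 evening point of Foxa2 stands for a count of 0.

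Msx1 and Msx2 are homeobox repressors of the luminal epithelium that are needed for receptivity and for the polarity of its cells. Msx1 (chr5:37820491-37824585, GRCm38/mm10, minus strand) was at 480.2, 587, 345, 196 and 97.1 CPM in day 3 morning, day 4 morning, day 4 evening, day 5 away and day 5 around. It was thus highest on day 4 morning and lower in each library taken later, with the lowest value next to the embryo. From day 4 morning it was lower by 2.99-fold in day 5 away (log2 difference −1.58, interval −1.64 to −1.53) and by 6.05-fold in day 5 around (−2.59, −2.67 to −2.52). The 2 day 5 samples differed by 2.02-fold (−1.01, −1.10 to −0.93), on the edge of 2-fold. The antisense gene Msx1as covers 1137 bases of the Msx1 exons, 58.9% of their length, and had 581, 573, 253, 172 and 81 counts in the same order against 8340, 10540, 5452, 3657 and 1672 for Msx1. The counting is not stated to use strand, so their reads cannot be told apart; with both genes summed, the differences of Msx1 from day 4 morning were −1.59 and −2.60 on day 5.

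Msx2 (chr13:53466881-53472780, minus strand) had a different course. It was at 72.5 CPM on day 3 morning and at 2.90, 0.822, 1.82 and 1.68 CPM in the 4 libraries that followed, that is 1259 counts against 52, 13, 34 and 29. Day 3 morning stood apart from all later libraries, by 25-fold from day 4 morning (log2 difference −4.59, interval −5.08 to −4.25). On day 4 evening Msx2 was a further 3.52-fold lower (−1.68, −2.82 to −0.92), and the 2 day 5 samples could not be told apart at this depth (−0.11, −0.88 to 0.64). Per length, Msx1 was 7.42 times Msx2 on day 3 morning and 227 times Msx2 on day 4 morning, and 64.6 to 470 times in the remaining libraries. Msx1 thus made 88.1% of the Msx reads per length on day 3 and at least 98.5% afterwards.

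Dlx5 and Dlx6 were the only 2 of the 7 Msx and Dlx homeobox relatives listed that passed the filter on low counts (a mean of 1 CPM over the 5 libraries). Msx3 had 4 counts on day 3 morning and 0 afterwards. Dlx5 was at 105.7, 102, 101.9, 63.4 and 49.2 CPM and Dlx6 at 15.7, 12.0, 12.3, 6.65 and 3.66 CPM. Dlx5 was level through day 4, Dlx6 was highest on day 3, and both were lower on day 5, most so around the embryo (log2 differences −1.05 and −1.68 from day 4 morning). Of 8 genes tied to Msx1 in implantation, 3 were over 2-fold higher and 2 lower in day 5 away than on day 4 morning, and 6 were higher and 1 lower in day 5 around. Lif, 1 of the 8, was at 2.07, 0.947, 0, 0.107 and 17.65 CPM. It passed the filter through day 5 around, so its place among the higher genes there follows from the filter. Lif was also among the lower genes in day 5 away, with 2 counts. The shares over the 12918 genes that passed the filter were 15.0% higher and 14.3% lower in day 5 away, and 20.7% and 22.6% in day 5 around, and the counts of listed genes given further on stand beside these same shares. The lower gene around the embryo was Wnt5a, a ligand that Msx factors hold down, at 282 CPM on day 4 morning, 342 in day 5 away and 87.8 in day 5 around (log2 difference −1.68). The growth factor gene Hbegf was higher by 5.38 on the log2 scale in day 5 around, after 2.64 in day 5 away. The prostaglandin synthase gene Ptgs2 went opposite ways, at 18.7 CPM on day 4 morning, 3.59 in day 5 away (−2.34) and 479 in day 5 around (4.68).

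Sox17, an HMG-box factor that acts with the progesterone receptor and Gata2 on Ihh, was the most abundant of the 10 per length in each of the 5 libraries, at 243 to 728 RPKM (CPM divided by the exon length in kilobases). It lay at the 98.1 to 99.5 percentile of the 12918 genes that passed the filter. Its CPM were 1553, 2129, 1818, 762 and 2277 (chr1:4490928-4496413, minus strand). Day 5 away was the low library, 2.79-fold under day 4 morning (log2 difference −1.48, interval −1.51 to −1.45). Day 5 around was 2.99-fold over day 5 away (1.58, 1.55 to 1.61) and within 1.07-fold of day 4 morning (0.10, 0.08 to 0.12), a difference whose sign turned to −0.05 when libraries were scaled by totals without Rn45s and Lars2. Of the SoxF genes Sox17 made 93.4% to 99.0% of the reads per length, the rest being Sox7 and Sox18.

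Sox9, a Sox factor of gland and progenitor cells, had its lowest value in the same library: 26.2, 15.0, 36.1, 3.43 and 29.5 CPM. Sox7 was highest on day 4 evening, at 122 CPM against 42.7 on day 4 morning, and lowest in day 5 around, at 18.7. In the list of 8 genes of the Sox17, Pgr and Ihh axis, 2 were over 2-fold higher and 2 lower in day 5 away, and 2 were higher and 4 lower in day 5 around. Ihh, the epithelial hedgehog ligand, was at 159, 230.2, 545, 674 and 2171 CPM, so it was higher in both day 5 samples (log2 differences 1.55 and 3.24) whereas Sox17 was lower or level. Pgr was at 415, 166, 143, 26.7 and 35.1 CPM, and Gata2 at 539, 876, 301, 85.8 and 118.5 CPM. Both were lowest on day 5, by −2.64 and −2.24 for Pgr and −3.35 and −2.88 for Gata2. Among the hedgehog targets, Gli1 was at 3.01 CPM on day 4 morning, 6.76 in day 5 away (1.14) and 1.97 around (−0.58). Ptch1 was at 3.84, 3.65 (−0.07) and 1.57 CPM (−1.23).

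Foxa2 is the forkhead factor of uterine glands and is used as their marker; it lies at chr2:148042878-148046969 on the minus strand. It had 32, 51, 0, 2 and 21 counts, or 1.84, 2.84, 0, 0.107 and 1.22 CPM, the lowest levels of the 10. Its mean of 1.18 CPM was just above the filter of 1, so it passed only through the libraries where it was highest. Day 4 evening was at least 15-fold lower than day 4 morning when its 0 was replaced by the floor of 3 counts. Day 5 away had only 2 counts, under the floor; the ratio of the scaled counts was 26.5-fold, and its wide interval of −7.81 to −2.80 on the log2 scale is the better guide. Day 5 around was lower by 2.33-fold (−1.15, −2.03 to −0.46). Day 3 and day 4 morning did not differ beyond counting error (0.59, −0.04 to 1.31).

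Gland RNA was therefore sought with 9 gland genes, of which 7 had a row. Their summed level was 243.6 CPM on day 3 morning, of which 240.9 was the retinal dehydrogenase gene Aldh1a1, and 13.3, 7.96, 4.40 and 29.8 CPM in the later libraries. Ttr was at 0 in all 5 libraries and the gland proteases Prss28 and Prss29 were at 0 on days 3 and 4. In day 5 away and around Prss28 had 21 and 44 counts and Prss29 had 35 and 74. Spink3 had 0, 8, 20, 17 and 81 counts over the 5 libraries, most in day 5 around. Prss29 and Spink3 passed the filter through the libraries where they were highest, and Prss28 did not pass. Lif was at 2.07, 0.947, 0, 0.107 and 17.7 CPM, with 304 counts in day 5 around, where it made 17.7 of the 29.8 CPM. The study describes Lif as made by glands before attachment and by stroma near attached embryos on day 5. Its counts around the embryo are thus not specific to gland RNA.

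Klf4 and Klf5 are zinc finger factors, Klf4 of differentiating and Klf5 of proliferating epithelia, and Klf5 is required in the uterine epithelium for implantation. Klf4 (chr4:55527137-55532475, minus strand) was at 19.0, 11.0, 21.7, 67.4 and 231.5 CPM. Its lowest value was that of day 4 morning and its highest that of day 5 around. From day 4 morning it was 6.11-fold higher in day 5 away (log2 difference 2.60, interval 2.39 to 2.84) and 21-fold higher in day 5 around (4.38, 4.19 to 4.61). The sample around the embryo exceeded the one away from it by 3.44-fold (1.78, 1.69 to 1.87). The 4 GC boxes printed above stand in the promoter of this gene.

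Klf5 (chr14:99298691-99313409, plus strand) varied least of the 10. It was at 116, 180.1, 149, 204 and 155 CPM, a range of 1.75-fold, and no comparison of it passed 2-fold. Its interval was away from 0 in both day 5 comparisons, in opposite directions: 0.18 (0.11 to 0.25) in day 5 away and −0.21 (−0.29 to −0.14) in day 5 around. Per length Klf5 was 10.8, 28.8, 12.1, 5.33 and 1.18 times Klf4, so the 2 were nearly equal around the embryo only.

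Klf5 was the most abundant of 17 Klf genes per length in the first 4 libraries, with 37.2%, 46.9%, 40.3% and 34.9% of the family's reads. In day 5 around it made 17.3%, behind Klf6 with 21.6% and ahead of Klf4 with 14.6%. The family sum was 181, 223, 214, 338 and 521 RPKM. Of the 15 relatives besides Klf4 and Klf5, 12 passed the filter. In each of the day 5 samples 5 were over 2-fold higher and 3 lower than on day 4 morning. The higher genes were not all the same: Klf11 was among them in day 5 away (1.73, against 0.68 around). Klf10 was among them in day 5 around (2.82, against 0.53 away). Klf3 and Klf6 were on the edge of 2-fold in day 5 away, at 1.00 each. Klf7 was at 3.84 CPM on day 4 morning, 30.7 in day 5 away and 67.9 in day 5 around. Klf9, a progesterone receptor partner, was higher by 1.18 and 1.59 on the log2 scale, while Klf15 was lower by 1.23 and 2.63. Klf8 was lower too, at 11.9, 0.375 and 2.44 CPM, and day 5 away had only 7 counts of it.

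**Figure D2:**
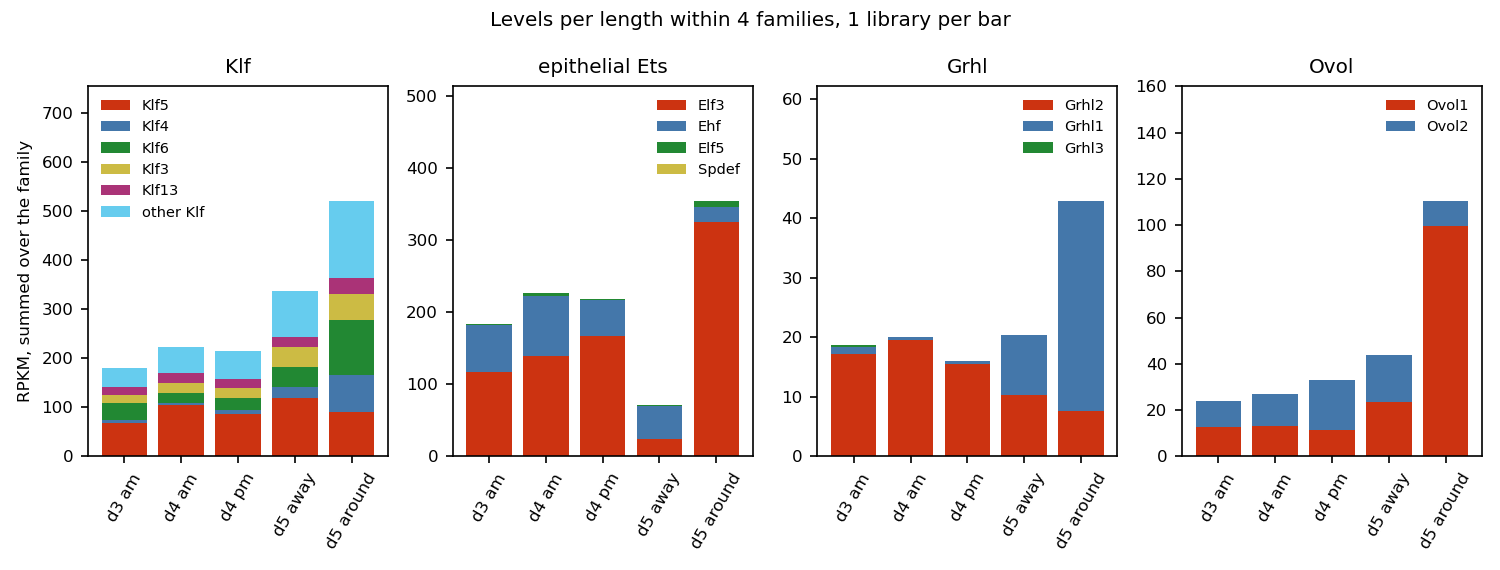
Levels per length (RPKM, linear axes that start at 0 and differ between panels) of the members and their relatives, stacked within the Klf, epithelial Ets, Grhl and Ovol families; each bar is 1 library. Klf5 (red) is the largest Klf block through day 5 away, Elf3 shrinks in day 5 away and is the tallest block in day 5 around, Grhl1 (blue) joins Grhl2 on day 5, and Ovol1 makes 90.2% of the Ovol bar in day 5 around.

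Ehf and Elf3 belong to the epithelial branch of the Ets factors, and both act in barrier epithelia. Ehf (chr2:103263433-103303196, minus strand) was at 288, 365.5, 216, 203 and 94.5 CPM. It was highest on day 4 morning and lowest around the embryo, 3.87-fold lower (log2 difference −1.95, interval −2.03 to −1.87). In day 5 away the difference was −0.85 (−0.91 to −0.79), under 2-fold. Its course was the most like that of Grhl2 among the members: after centring each gene on its own mean, their log2 levels differed by 0.25 (root mean square over the 5 libraries), and Msx1 and Ehf by 0.35.

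Elf3 (chr1:135253574-135258472, minus strand) separated the 2 day 5 samples the most. It was at 233, 279, 335, 48.0 and 649.7 CPM. The first 3 libraries lay close together, day 5 away was far under them and day 5 around above them. Elf3 was 5.81-fold lower in day 5 away than on day 4 morning (log2 difference −2.54, interval −2.64 to −2.44) and 2.33-fold higher in day 5 around (1.22, 1.17 to 1.27). Between the 2 day 5 samples it differed by 13.5-fold (3.75, 3.66 to 3.86). Per length, Elf3 was 1.78, 1.67, 3.40, 0.519 and 15.1 times Ehf, so the order of the pair turned in day 5 away.

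Among the 12 other Ets genes listed, 11 passed the filter. In day 5 away 3 were over 2-fold higher and 2 lower, beside 15.0% and 14.3% of all genes, and in day 5 around 5 were higher and 2 lower, beside 20.7% and 22.6%. Etv4, among the higher genes in both, was at 0.749, 0.334, 0, 3.49 and 1.97 CPM and passed the filter through its day 5 values. Elf5, the closest relative of Elf3 and Ehf and also a gene of trophoblast, was at 2.82, 8.24, 4.87, 0.536 and 18.4 CPM, lowest in day 5 away and highest in day 5 around like Elf3. Etv5, an Ets gene that answers to FGF signalling, had the opposite order on day 5, at 69.6 CPM away and 14.3 around. Spdef had 2 counts on day 3 and 0 afterwards.

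Grhl2 and Ovol1 keep the epithelial state: Grhl2 holds junction genes on, and Ovol factors hold down mesenchymal factors such as Zeb1. Grhl2 (chr15:37233036-37363568, plus strand) was at 85.2, 96.6, 76.9, 51.3 and 37.7 CPM. It was lower on day 5 than in each earlier library, by 1.88-fold away from (log2 difference −0.91, interval −1.03 to −0.80) and by 2.56-fold around the embryo (−1.35, −1.49 to −1.23), relative to day 4 morning. Its relative Grhl1, which is no member, went the other way: 3.74, 1.89, 1.71, 35.4 and 124.5 CPM, with log2 differences of 4.14 and 5.96 on day 5. Per length Grhl2 was 36.4 times Grhl1 on day 4 morning, 1.03 times in day 5 away and 0.216 times in day 5 around. Grhl2 thus went from 97.3% of the Grhl reads per length to 50.8% and 17.7%.

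Ovol1 (chr19:5549137-5560575, minus strand) was at 37.0, 38.5, 32.9, 68.5 and 289 CPM. The 3 libraries of days 3 and 4 lay within 1.17-fold of day 4 morning, and both day 5 samples were above them. The difference from day 4 morning was 1.78-fold in day 5 away (log2 difference 0.83, interval 0.70 to 0.97) and 7.51-fold in day 5 around (2.90, 2.79 to 3.03). Between the day 5 samples it was 4.22-fold (2.08, 1.99 to 2.17). Ovol2, its paralog, was at 17.3, 20.9, 33.1, 30.9 and 16.6 CPM, so Ovol1 made 34.5% to 53.9% of the Ovol reads per length before and away from attachment and 90.2% around the embryo. Ovol1 was 0.680 times Grhl2 per length on day 4 morning and 13.1 times Grhl2 in day 5 around.

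Of 12 genes of the epithelial junction and protease programme that Grhl2 and Ovol factors are known to sustain, 3 were over 2-fold higher and 1 lower in day 5 away than on day 4 morning (median log2 difference 0.49), and 7 were higher and 1 lower in day 5 around (1.10). The medians over all genes were 0.00 and −0.03. The claudin gene Cldn4 was at 56.5, 142 and 496 CPM in day 4 morning, day 5 away and day 5 around, and Cdh1, the E-cadherin gene, at 591, 430.5 and 1316 CPM. Cldn3 was the lower gene in day 5 around, at 2452, 1443 and 964 CPM, and the splicing factor gene Esrp1 the lower gene in day 5 away. Of the 6 mesenchymal factors opposed by this programme, 4 were higher in day 5 away and 3 in day 5 around. There Zeb1 alone was lower, at 6.63 CPM on day 4 morning and 2.85. Snai2, among the higher genes in both, was at 0.403, 0.835, 1.33, 2.41 and 3.02 CPM. It passed the filter through its day 5 values, so its place among the higher genes follows from the filter. These 6 genes were low, with no value above 28.0 CPM.

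Counts over the members leave out Foxa2, which passed the filter through the libraries where it was highest, so that its lower values elsewhere follow from the filter. From day 3 to day 4 morning none of the other 9 was over 2-fold higher and 1, Msx2, was lower; over all 12918 genes that passed the filter, 7.41% were higher and 11.5% lower. From day 4 morning to evening none was higher and 1, Msx2 again, was lower, beside 7.20% and 6.94% of all genes. Both counts are near the shares over all genes. From day 4 morning to day 5 away Klf4 was higher and Msx1, Sox17 and Elf3 were lower, 1 and 3 of 9, beside 15.0% and 14.3% of all genes. From day 4 morning to day 5 around Klf4, Elf3 and Ovol1 were higher and Msx1, Ehf and Grhl2 lower, 3 and 3 of 9, beside 20.7% and 22.6%. These 4 comparisons share the day 4 morning library. The medians over the 9 were 0.26, −0.28, −0.85 and −0.21 in this order, and 0.27, −0.30, −0.88 and −0.48 with Foxa2. Values nearest under 2-fold were those of Klf4 on day 4 evening (0.97) and of Grhl2 (−0.91), Ehf (−0.85) and Ovol1 (0.83) in day 5 away. Of these, Klf4 and Ovol1 passed 2-fold under library totals (1.03 and 1.11). The nearest value over 2-fold among the 9 was that of Elf3 in day 5 around (1.22).

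**Figure D3:**
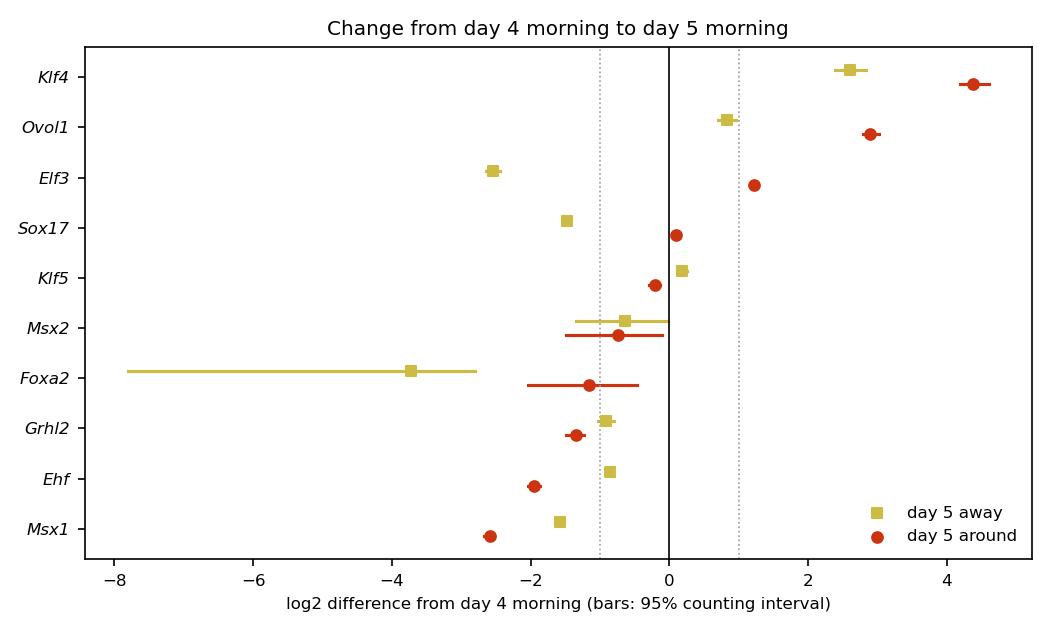
Difference of each transcription factor from day 4 morning in the day 5 library away from the embryo (squares) and around it (circles), in log2 units; bars are exact 95% counting intervals, some narrower than the marker, and dotted lines mark 2-fold. Both libraries are set against the same day 4 morning library: Klf4 and Ovol1 lie right of 0 in both, Msx1, Ehf, Grhl2, Foxa2 and Msx2 left of 0 in both, and Elf3, Sox17 and Klf5 on opposite sides.

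The comparison within day 5 does not use day 4 morning. Sox17, Klf4, Elf3 and Ovol1 were over 2-fold higher around the embryo than away from it, and Msx1 and Ehf lower. This was 4 and 2 of 9, beside 13.3% and 15.0% of all genes. The median over the 9 was −0.11, against −0.05 over all genes, and turned to 0.74 when Foxa2 (21 counts against 2) was added. Elf3 had the widest gap, and Klf5, Grhl2 and Msx2 were within 2-fold. With DESeq2 size factors Msx1 was at −0.96 and no longer past 2-fold.

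**Figure D4:**
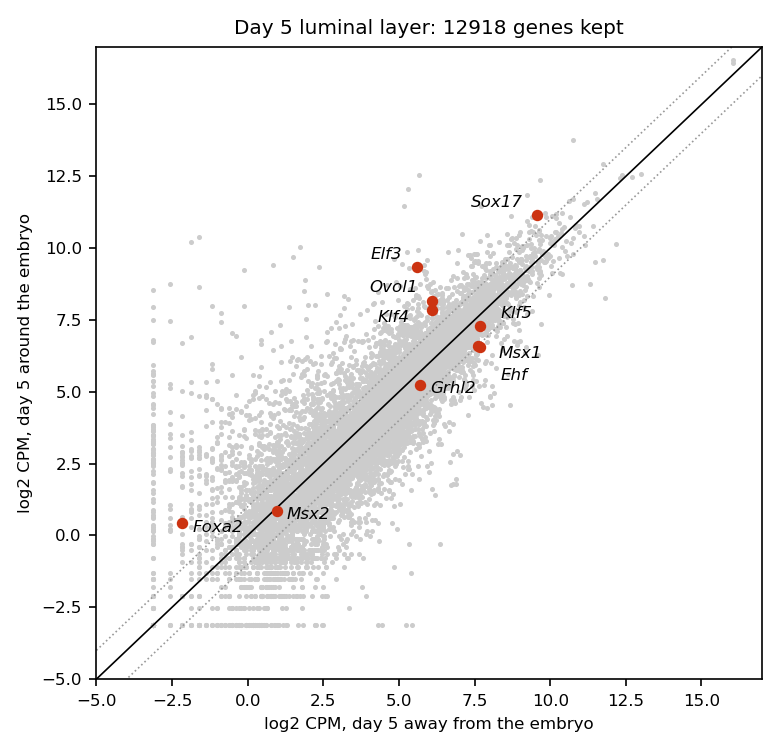
Level of the 12918 genes that passed the filter in the 2 day 5 libraries, as log2 CPM with a prior count of 2 on both axes; grey points are genes, red points the 10 transcription factors, the solid line marks equal levels and dotted lines 2-fold. Elf3, Sox17, Klf4, Ovol1 and Foxa2 lie above the upper dotted line, Msx1 and Ehf on or just below the lower line, and Klf5, Grhl2 and Msx2 between the lines.

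The order of the factors per length shifted with these changes. On day 4 morning it was Sox17, Msx1, Elf3, Klf5, Ehf, Grhl2, Ovol1, Klf4, and then Msx2 and Foxa2, which did not differ beyond counting error. Msx1 was second in the first 3 libraries, the third in day 5 away and the sixth around the embryo, where Sox17, Elf3, Ovol1, Klf5 and Klf4 came before it. In day 5 away Elf3, Ovol1 and Klf4 had 24.0, 23.6 and 22.1 RPKM, neighbours whose intervals overlapped. Over the 5 libraries the widest range was that of Msx2, 77.5-fold on the log scale used here, followed among the well counted genes by Klf4 (20.8-fold), Elf3 (13.5-fold) and Ovol1 (8.76-fold).

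Among 8868 genes with a mean of 10 CPM or more, the genes whose centred course came closest to each member are named as a description over 5 libraries. For Msx1 they were Tprn, Prkag2 and Gstm4, at root mean square differences of 0.089 to 0.107 in log2 units. For Sox17 they were Dhcr7 (0.077), Ubash3b and Hspb8. Klf4 came closest to Spry4 (0.176), Qsox1 and Ero1l, and Ovol1 to Efna5 (0.146), Itga5 and Ppp1r18. Elf3 came closest to Ceacam1 (0.281), Hk2 and Prelid2, Ehf to Vmac (0.067), Pgap2 and Pex10, and Grhl2 to Zfp606 (0.052), Pex2 and Maged1. Klf5, whose own range was small, had Tbc1d17 (0.051), Gtf3c3 and Lamb1. The nearest genes to Msx2, Nusap1, Melk and Cep55, were no nearer than 0.801, and those to Foxa2, Wisp1, Cdc42ep3 and Slc6a14, no nearer than 0.562.

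RNA of other cells differed between the libraries, and the day 5 sample around the embryo stood apart in it. The 7 embryo and trophoblast markers other than Krt8 summed to 5.01 to 12.9 CPM in the first 4 libraries and to 113.9 CPM in day 5 around, where all 7 were above 3 counts; Cdx2, Pou5f1 and Nanog were at 0 in the other 4. The 5 smooth muscle markers summed to 10.8 to 31.6 CPM in the first 4 libraries and to 392 CPM around the embryo. Des made 354 of the 392 CPM, but all 5 were over 2-fold higher there than on day 4 morning (median log2 difference 3.95). Cnn1 and Myh11 passed the filter through that library. The 5 endothelial markers summed to 11.0 to 28.3 CPM in the first 4 libraries and to 85.5 CPM around, of which Cdh5 made 71.4. From day 4 morning 2 of these 5, Cdh5 and Cldn5, were over 2-fold higher around the embryo and 1, Emcn, was lower (median 0.04). The 11 stromal markers summed to 479 CPM around the embryo and 625 to 717 elsewhere, but they went opposite ways. From day 4 morning 2 were over 2-fold higher and 4 lower around the embryo. Hand2 was at 4.40 CPM on day 4 morning and 132.5 around, and Col1a1 at 15.0 and 46.2 CPM. Without Hand2 the other 10 summed to 346 CPM around and 621 to 711 elsewhere. Dcn, Lum, Col3a1 and Col1a2 were at log2 differences of −2.34, −3.02, −2.05 and −1.69 from day 4 morning. The immune sum was mostly Cd14, at 465, 900, 633, 202 and 54.5 CPM. The other 4 immune markers with a row summed to 31.4 to 38.5 CPM in the first 4 libraries and to 45.1 CPM around. Cd68 made 38.9 of that last sum, and these markers went opposite ways too. From day 4 morning to around the embryo Ptprc went from 19.5 to 3.83 CPM and Csf1r from 8.24 to 2.15 CPM. Cd3e had 12 and 3 counts in the same 2 libraries. The part of these cells in the levels of Klf4, Elf3, Ovol1 and Sox17 around the embryo was not tested.

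**Figure D5:**
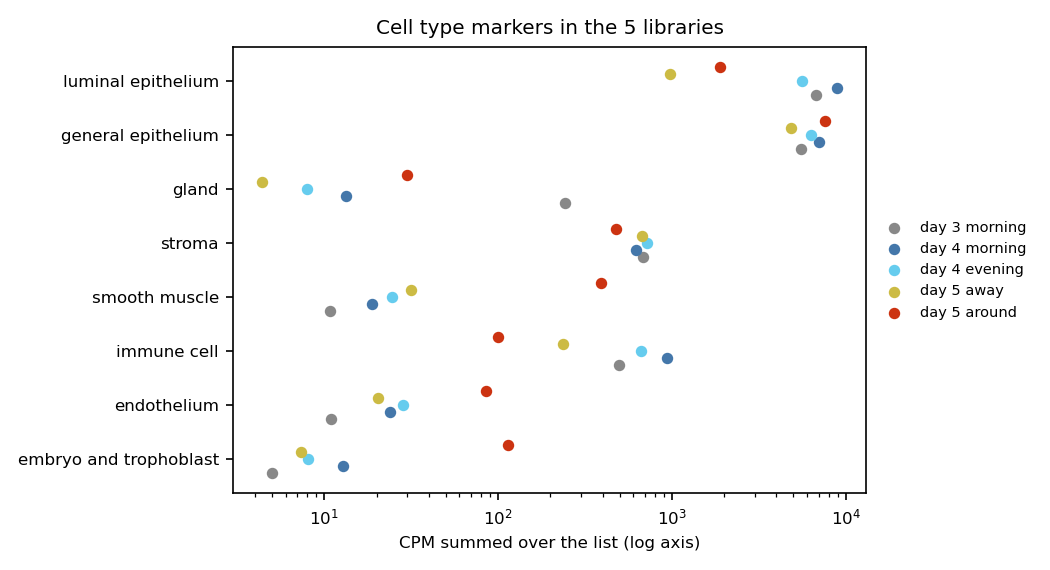
CPM summed over each list of cell type markers (log axis) in the 5 libraries; each point is 1 library, colored by group. General epithelial markers lie between 4839 and 7597 CPM in all libraries, while the embryo, smooth muscle and endothelium sums are highest in day 5 around and the gland sum on day 3 morning.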

How the data were processed

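RNA from the laser-cut luminal layer of 5 wild-type samples was amplified with a SMART-seq kit and sequenced in paired ends. Per the labels and the methods of the study, the authors aligned reads with HISAT2 to GRCm38/mm10 and counted them with featureCounts of Subread 2.0.0; the deposited values are whole-number counts per gene, with gene coordinates and exon length. The annotation, strand setting and treatment of multi-mapping reads are not given in the sources used here. Totals were 15334674 to 19529491 counts, which sets the width of the counting intervals.

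Libraries were scaled by TMM (edgeR 4.0.16). Levels are CPM, log2 CPM with a prior count of 2, or RPKM with the deposited length, and 12918 genes whose CPM averaged 1 or more were kept. With 1 library per group no test was possible: differences over 2-fold were counted, and exact 95% Clopper-Pearson intervals of the count ratio were added (scipy 1.17.1). The script was tested on simulated data. The members and lists were chosen with earlier results of these data known. Named were the members, the listed genes that changed most in a list or served as markers, and the 3 genes closest in course to each member; other listed relatives (Dlx6, Sox7, Klf9, Etv5, Ovol2 and the like) were named after their values were seen. Exon overlaps came from the deposited gene coordinates, and GENCODE vM21 gave the identifier, type, start and end of each member. Promoters came from RefSeq (GRCm38.p6).

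Alternatives were DESeq2 1.42.0 size factors, library totals, totals without Rn45s and Lars2, a prior count of 0.5, no filter, and an average of 5 CPM or more; the sum of Msx1 and Msx1as and counts of members without Foxa2 were added after the data were seen. No paired or leave-one-out fit was possible with 1 library per group.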

Additional observations from a re-analysis of the deposited data

Results flagged for a closer look

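Sox17, Elf3 and Klf5 lay on opposite sides of day 4 morning in the 2 day 5 libraries; each side was a single library, both used the same day 4 morning library, and the difference was not tested. Elf3 was at −2.54 away from the embryo and 1.22 around it (log2), a gap of 3.75. Sox17 was at −1.48 and 0.10, a gap of 1.58, of which the second value turned negative under another scaling. Klf5 was at 0.18 and −0.21, a gap of −0.39. No group had the 4 samples needed to look for an outlying library.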

How the results depend on the processing

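Of 300 values of the 50 member differences under other settings, 296 stayed on their side of 2-fold and 294 kept their sign, and none that passed 2-fold reversed. The 4 that crossed were Klf4 from day 3 to day 4 morning (−1.08) and on day 4 evening (1.03) and Ovol1 in day 5 away (1.11), all under library totals, and Msx1 within day 5 (−0.96, DESeq2 factors). Library totals moved the median of all genes by −0.29 from day 3 to day 4 morning, 0.28 in day 5 away and −0.31 within day 5, and totals without Rn45s and Lars2 by −0.14, 0.13 and −0.28 there and −0.15 in day 5 around. The 6 values of the other sign were those of Msx1, Elf3, Grhl2 and Ovol1 from day 3 to day 4 morning under library totals, and of Ovol1 there and Sox17 in day 5 around under totals without Rn45s and Lars2.

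Over all 10 members, from day 3 to day 4 morning 2 were lower with library totals; with them 1 was higher on day 4 evening and 2 in day 5 away. Without Foxa2 1 was lower on day 4 evening, and the median within day 5 was −0.11 in place of 0.74. With DESeq2 factors 1 member was lower within day 5, and with a mean of 5 CPM 1 was lower on day 4 evening. From day 3 to day 4 morning 957 genes were higher and 1490 lower, 39.1% higher; library totals gave 538 and 2209 (19.6%) and totals without Rn45s and Lars2 28.7%. In day 5 away 51.1% of called genes were higher, 65.8% with library totals. Within day 5 46.9% were higher, 31.5% and 32.6% with the 2 kinds of totals. Without a filter the counts were 1686 higher and 2682 lower from day 3 to day 4 morning, 1932 and 1653 on day 4 evening, 4321 higher in day 5 around and 3110 higher within day 5. With a mean of 5 CPM they were 562 and 884, 549 and 476, and 1282 lower within day 5; fewer genes were then tested. Depth limits Foxa2 and Msx2 after day 3. No paired analysis was possible because each group is a single library.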

Other observations

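Tfcp2l1, a Grhl relative, was at 266, 526, 545, 1659 and 1156 CPM in day 3 morning, day 4 morning, day 4 evening, day 5 away and day 5 around, above Grhl2 in each library also per length. Foxo1, a forkhead gene beside the near-absent Foxa2, was at 53.8, 68.0, 156, 505 and 451 CPM, with log2 differences of 2.89 and 2.73 from day 4 morning on day 5. Areg, an epidermal growth factor family ligand and progesterone target, was at 25.7, 65.8, 63.5, 35.5 and 2804 CPM, high in day 5 around only.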
